A study of Nasonia vitripennis with 2 samples.

Results

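The methylation-rich neighbourhoods described here are windows of 100 kbp in the genome of the parasitoid wasp Nasonia vitripennis that hold many methylated CpGs. Each reference scaffold was cut into windows from its first position, and the 2623 windows with at least 500 covered CpGs were used. A covered CpG is a CpG site with at least 10 bisulfite reads, and an mCpG is a covered CpG with more than 10% methylated reads. The windows were chosen by their number of mCpGs, with a minimum of 150, and 240 of the 2623 passed. These 240 are called rich windows, and the other 2383 are divided into 344 with 75 to 149 mCpGs, 1247 with 1 to 74 and 792 with none. Because the rich windows were chosen by these calls, their mCpGs and clusters are given as a description, without a test.

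The DNA came from whole bodies of 1 pool of 50 adult females of strain AsymCX, taken at 24 h. AsymCX is a highly inbred laboratory strain cured of the bacterium Wolbachia, and the labels name no treatment. The pool was read in 2 lanes, which the authors summed. There was no replicate and no control group, so the comparisons are between regions of the same genome and carry no error between samples. Over 14024488 CpG sites there were 226856322 counts. Of these sites 7818889 were covered, at a median of 19 reads, and 116929 were mCpGs. The intervals given are 95% Wilson intervals. They cover counting error only, since PCR copies of a molecule are not independent and a read is counted at each CpG it spans. For shares of windows they take the windows as independent, which adjacent windows need not be.

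In bisulfite sequencing an unmethylated cytosine is read as T and a methylated one stays C. The enzymes that set and copy CpG methylation are Dnmt3 and Dnmt1, and in wasps, bees and ants the mark lies mostly over the bodies of a subset of genes, above all on exons, while the rest of the genome carries little of it. A methylated gene therefore tends to appear as a compact run of methylated CpGs, a cluster, within long unmethylated sequence. Gene models on the scaffolds used here were not at hand, so clusters were not assigned to genes, exons or introns.

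The rich windows made up 8.12% of the scaffold sequence and held 50968 mCpGs, 43.6% of all mCpGs (95% interval 43.3 to 43.9). The other windows made up 73.8% of the sequence and held 61179 mCpGs, or 52.3%. The remaining 5830 windows had too few covered CpGs to be used and held 4782 mCpGs. Of covered CpGs, 6.56% were mCpGs in rich windows, against 0.919% in the other windows. The methylation percentage, the methylated share of all reads at covered CpGs, was 5.78% in rich windows, 2.83% in windows with 75 to 149 mCpGs, 0.658% in windows with 1 to 74 and 0.126% in windows with none. Even in rich windows most CpGs were unmethylated. Of covered CpGs, 88.2% had no methylated read in rich windows, against 95.9% in the other windows. These shares rest on covered CpGs only, and sites inside clusters were covered more often than sites outside them, as given with the depth below.

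Within the rich windows the number of mCpGs had a median of 199, with quartiles of 169 and 241 and a maximum of 532. The counts fell off gradually above the minimum: 122 windows had 150 to 199 mCpGs, 118 had 200 or more, 18 had 300 or more, and 3 had 400 or more. There was no gap at the threshold. In the rich set 27 windows had 150 to 159 mCpGs, and outside it 38 windows had 140 to 149. Just inside, with 150 mCpGs each, lay 4 windows, named by their first position as SCAFFOLD8:900001, SCAFFOLD10:2900001, SCAFFOLD39:100001 and SCAFFOLD112:500001, which held 8, 6, 10 and 8 clusters. Just outside, with 149 each, lay 5 other windows, SCAFFOLD4:500001, SCAFFOLD6:2200001, SCAFFOLD13:2900001, SCAFFOLD21:1400001 and SCAFFOLD135:1, of which the first held 7 clusters and the rest 6 each. The rich windows are the upper end of a continuous range.

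**Figure D1:**
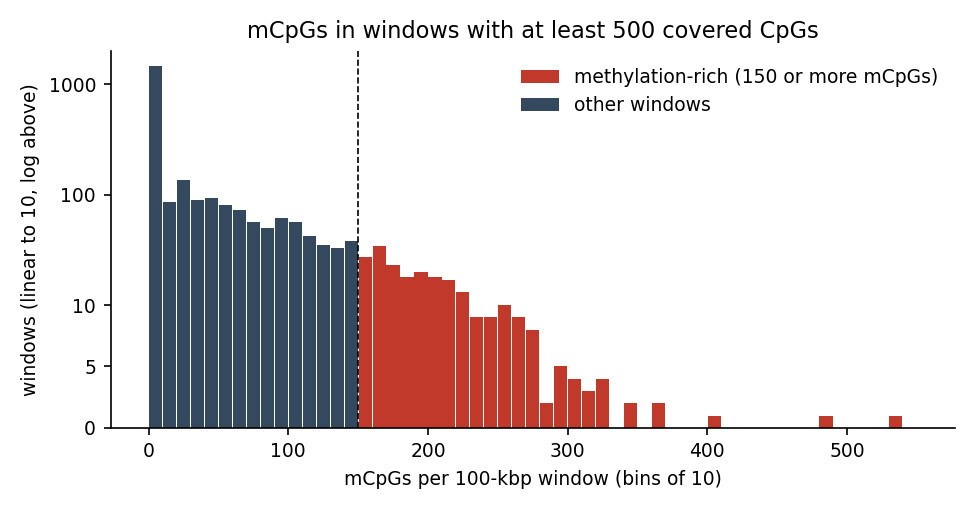
Number of windows (vertical axis, linear up to 10 and logarithmic above) by mCpGs per 100-kbp window in bins of 10, for windows with at least 500 covered CpGs. The dashed line marks the minimum of 150, above which lie the 240 rich windows, and the counts run through it without a gap, with 27 windows just above and 38 just below.

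Clusters of mCpGs were built by joining neighbouring mCpGs up to 500 bp apart until 3 covered CpGs in succession were unmethylated, and were kept with 4 or more covered CpGs, over 80% of them mCpGs, and a methylation percentage over 40%. Each cluster was counted in the window that holds its midpoint. Rich windows held 2453 of the 5451 clusters, 45.0%, and the other windows 2808. All 240 rich windows held a cluster, against 913 of the other windows (38.3%). The median was 10 clusters in a rich window, with quartiles of 8 and 11 and a range of 5 to 24, against 5 in windows with 75 to 149 mCpGs and 0 over all other windows. Clusters covered 11.9% of the sequence of rich windows, against 1.54% in the other windows. The share of mCpGs that lay within clusters was 80.4% in rich windows and 79.7% in the other windows.

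What differed between the classes was the number of clusters, while the single cluster was much the same. The difference in number follows in part from the choice of windows by mCpGs. The likeness of clusters follows in part from the cluster rule, which sets the same lower limits in every class. Cluster length, from the first to the last mCpG, had a median of 1067 bp in rich windows, with quartiles of 695 and 1489 bp, against 1072 bp in the other windows and 1065 bp in those with 75 to 149 mCpGs. The median cluster held 16 mCpGs in either class. In rich windows 14.1% of clusters were shorter than 500 bp and 4.16% were 2500 bp or longer, against 13.5% and 4.95% in the other windows. The median methylation percentage of a cluster was 64.0% in rich windows and 64.4% in the other windows. With all reads pooled it was 63.0% (95% interval 63.0 to 63.1) in rich windows and 63.7% (63.6 to 63.7) in the other windows, a difference of -0.62 percentage points that changed sign, to 0.37, when windows were ranked by the share of covered CpGs that were mCpGs. Both values are small beside the differences among clusters of the same window. Their standard deviation had a median of 10.6 points in rich windows and 9.96 points in the other windows with 3 or more clusters. The mean cluster level of the rich windows differed among windows by a standard deviation of 3.60 points. A mean over several clusters varies less than a single cluster, so this value is not directly comparable with the spread among clusters. Thus clusters of the same window differed in methylation, in rich windows and in the other windows alike.

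**Figure D2:**
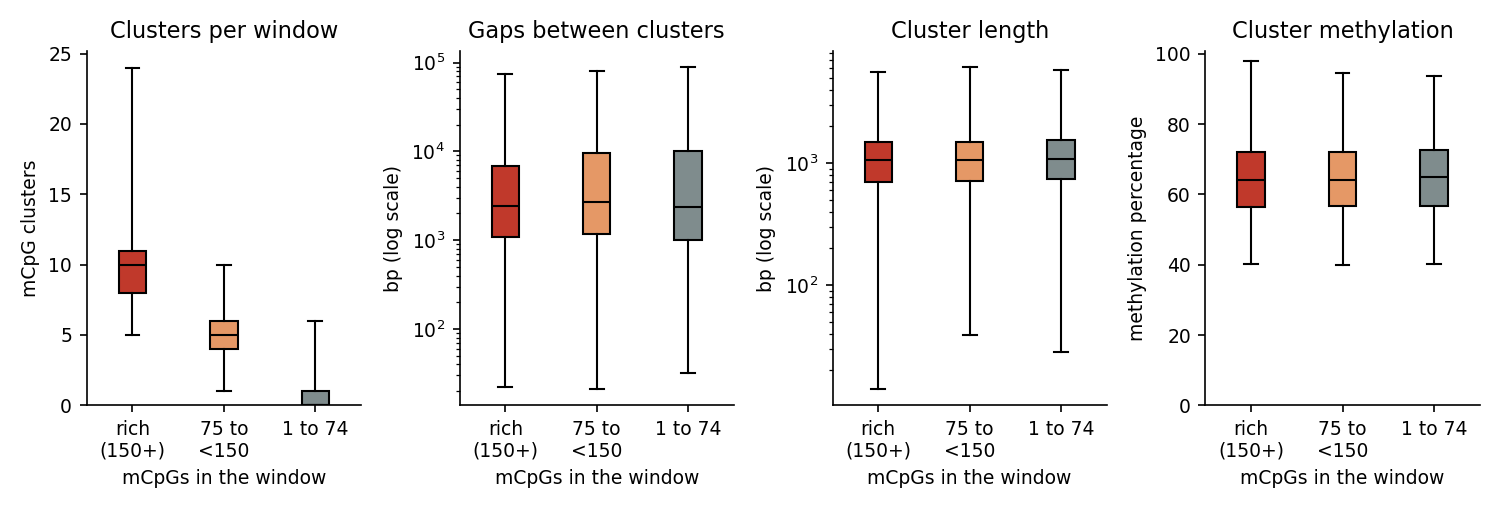
Clusters per window, gaps between clusters (bp, log scale), cluster length (bp, log scale) and cluster methylation percentage in rich windows, windows with 75 to 149 mCpGs and windows with 1 to 74. Boxes give the quartiles, lines the medians and whiskers the lowest and highest values. Cluster number differs by class, with medians of 10 in rich windows and 5 in windows with 75 to 149 mCpGs, while length and methylation have nearly the same medians and quartiles.

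The same held when windows were ordered by cluster number. Windows with 13 or more clusters, all 49 of them rich, had clusters of median length 995 bp and median methylation 64.1%. In the 84 windows with 10 to 12 clusters, 80 of them rich, the medians were 1059 bp and 64.5%. In the 264 windows with 4 to 6 clusters, 17 of them rich, they were 1071 bp and 64.1%, and in the 273 windows with a single cluster, none of them rich, 1380 bp and 65.9%. Cluster length was therefore somewhat shorter, not longer, where clusters were many. Across the 240 rich windows the mCpG count ran with the number of clusters (Spearman's rho = 0.73, Pearson's r = 0.81) and with the bases they covered (rho = 0.80, r = 0.87), but little with mCpGs per cluster (rho = 0.18, r = 0.17) or the median cluster methylation (rho = 0.10, r = 0.07). These correlations are across windows of the same libraries, share the mCpG calls and the depth, and are given without a test.

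The level of single mCpGs was also alike. The median mCpG had 72.7% methylated reads in rich windows and 72.3% in the other windows, and 46.5% of mCpGs in rich windows exceeded 75%, against 45.9% in the other windows. Inside clusters the medians were 77.1% in rich windows and 77.4% in the other windows. The mCpGs outside clusters were of lower level in both classes, with a median of 42.4% for 9943 mCpGs in rich windows, against 33.3% for 12425 in the other windows.

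The clusters of a rich window did not lie at even distances. The gap from the end of a cluster to the start of the next in the same window had a median of 2406 bp in rich windows, with quartiles of 1094 and 6845 bp, against 2611 bp in the other windows, where the quartiles were 1132 and 9719 bp. Had the clusters of each rich window been spread evenly, the median gap would have been 8192 bp. Of the 2213 gaps in rich windows 76.4% were shorter than the even gap of their own window, and in 236 of the 240 windows the median gap was. A random layout also gives uneven gaps, and whether the gaps differed from such a layout was not tested. Gaps of 20 kbp or more were 7.86% of the gaps in rich windows, against 14.5% in the other windows. A window with more clusters has less room for long gaps, so this last difference follows in part from the choice of windows. The median gap ratio, 0.92, was 1.18 when mCpGs were joined only up to 200 bp, so its direction rests on how clusters were drawn.

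Joined at gaps of up to 5000 bp, the clusters of rich windows formed 939 groups, with a median of 4 groups in a window. Groups held 2.61 clusters on average in rich windows, against 1.76 in the other windows, and the largest had 16. Of the clusters, 85.4% lay in a group of 2 or more in rich windows, against 68.0% in the other windows. Groups of 5 or more clusters numbered 142 (15.1% of groups) in rich windows and 52 (3.26%) in the other windows. Windows with 75 to 149 mCpGs came between, with 2.07 clusters in a group on average. In them 78.1% of clusters lay in a group of 2 or more, and 6.01% of groups had 5 or more. A window with few clusters cannot hold a large group, so these differences follow in part from the choice of windows. Methylation was still spread over much of a rich window. Of 10 parts of 10 kbp each, a median of 6 had at least 5 mCpGs in rich windows, against 3 in windows with 75 to 149 mCpGs. The part with most mCpGs held a median of 29.8% of them in rich windows and 45.8% in windows with 75 to 149. The longest stretch without an mCpG had a median of 27.3 kbp in rich windows, against 42.2 kbp in windows with 75 to 149 mCpGs.

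The 5 windows with most mCpGs show how clusters were laid out. SCAFFOLD1:8700001-8800000 had 532 mCpGs among 2028 covered CpGs, a methylation percentage of 21.1% (95% interval 20.8 to 21.4), and 24 clusters over 29.7% of its length, the largest number of clusters in any rich window. All 10 of its parts held 5 or more mCpGs, and its longest stretch free of mCpGs was 6.04 kbp. Its clusters were 96 to 2790 bp long and 40.6% to 78.3% methylated, and 13 clusters in a row, between 8735013 and 8765644, were parted by no more than 2564 bp each. SCAFFOLD15:100001-200000 had 481 mCpGs and 19 clusters, which covered 31.5% of it and held 403 mCpGs. A cluster of 4999 bp in this window (SCAFFOLD15:156336-161334) had 61 mCpGs of 65 covered CpGs and a methylation percentage of 76.5% (74.8 to 78.1). Both windows were low in CpG sites, with 31.0 and 34.4 per kbp.

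The next windows had clusters on only some of their length. SCAFFOLD9:3700001-3800000 had 404 mCpGs and 18 clusters, which held 342 mCpGs and formed a block of 11 and a block of 7 with 34417 bp between them. SCAFFOLD23:2100001-2200000 had 360 mCpGs and 16 clusters, which held 287 of them. Its neighbouring clusters at 2147726-2149103 and 2149187-2150933, with 83 bp between them, were 69.5% (65.8 to 72.9) and 48.3% (45.1 to 51.6) methylated. The last cluster in the window, 238 bp long at 2171732-2171969, had 95 methylated reads of 97. SCAFFOLD123:1-100000 also had 360 mCpGs, and its 14 clusters, with 306 mCpGs, all ended by position 41230. These 3 windows had 52.4, 46.6 and 42.3 CpG sites per kbp. The longest cluster in a rich window (SCAFFOLD7:789308-794891) ran over 5584 bp, with 90 mCpGs of 95 covered CpGs and a methylation percentage of 67.8% (66.2 to 69.4), in a window with 326 mCpGs and 9 clusters.

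**Figure D3:**
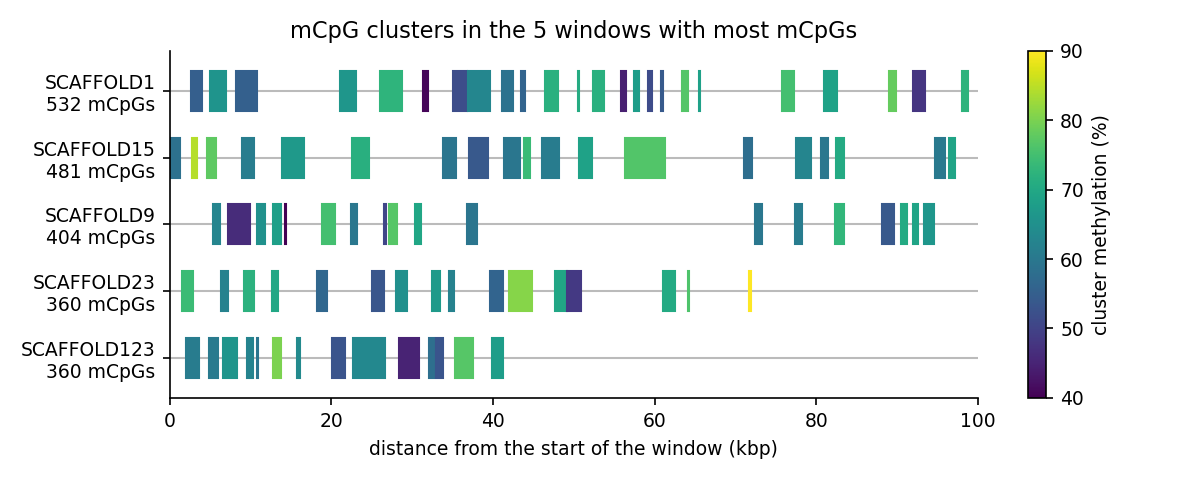
mCpG clusters in the 5 windows with most mCpGs, by distance from the start of the window in kbp, each block a cluster drawn to scale and coloured by its methylation percentage. Clusters run through the whole of the windows on SCAFFOLD1 (532 mCpGs) and SCAFFOLD15 (481), form 2 blocks on SCAFFOLD9 (404), and end before the middle of the window on SCAFFOLD123 (360), and neighbouring clusters differ in methylation.

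CpG density, the number of CpG sites per kbp of window, covered or not, was not itself a criterion for the choice of windows. Its median was 53.8 per kbp in rich windows and 53.9 in the other windows, but the spread was far narrower in rich windows, with quartiles of 47.2 and 59.0 against 30.9 and 71.2 in the other windows. The other windows were a mixture, with a median of 62.0 per kbp in windows with 75 to 149 mCpGs and 32.5 in windows without any. The longest stretch without a listed CpG site had a median of 9.85 kbp in windows without mCpGs, against 1.01 kbp in rich windows. Over 1-kbp bins that hold a CpG site the median density was 39.4 per kbp in windows without mCpGs. It was 63.1 in windows with 75 to 149 and 54.1 in rich windows. The rich share of windows was 25.1% (20.1 to 30.9) at 40 to 50 CpG sites per kbp and 28.4% (24.0 to 33.2) at 50 to 60. It was 4.86% at 30 to 40, 0.56% at 20 to 30, 10.1% at 60 to 70 and 2.49% at 70 to 80 per kbp, and 0 of 205 windows at 80 to 90 were rich, with an upper limit of 1.84%. Rich windows thus lay at intermediate density. Of the 617 windows with 40 to 60 CpG sites per kbp, 167 were rich (27.1%), 121 had 75 to 149 mCpGs, 235 had 1 to 74 and 94 (15.2%) had none, so windows of this density ranged from rich to empty.

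The ratio of the median densities, rich over other, depends on which windows are compared. It was 0.998 over the windows as defined, 0.89 among windows of full length, and 0.79 among windows with at least 2000 covered CpGs, where the medians were 54.0 per kbp in rich windows and 68.2 in the others. It was 1.14 when CpGs with 5 or more reads counted as covered. The minimum of covered CpGs removed windows with few sites, and the number of CpG sites limits how many mCpGs a window can hold. Their part in the result was not tested. Clusters themselves were poor in CpGs, with a median over windows of 16.7 per kbp inside clusters in rich windows and 17.4 in the other windows. Outside clusters the medians were 58.7 per kbp in rich windows, 64.6 in windows with 75 to 149 mCpGs and 54.8 over all other windows.

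Rich windows were found over a wide range of density. SCAFFOLD128:1-100000 had 12.9 CpG sites per kbp, 186 mCpGs among 837 covered CpGs and 8 clusters, and included a stretch of 31.3 kbp without a listed CpG site. SCAFFOLD1:9100001-9200000 had 74.8 per kbp, 157 mCpGs among 4148 covered CpGs and 7 clusters. These densities count stretches without a listed CpG site in the length. Over 1-kbp bins that hold a CpG site, the density of rich windows ran from 25.9 to 74.8 per kbp. Covered CpGs were a median of 63.1% of the sites of rich windows and 58.2% in the other windows. The mean number of reads per covered CpG had a median of 26.3 in rich windows and 25.6 in the other windows. By this measure the depth of the classes was close. Within rich windows 90.7% of sites inside clusters were covered, against 61.1% at 2001 to 5000 bp from a cluster. In the other windows these values were 89.7% and 60.9%. The median reads were 29 at mCpGs and 20 at covered CpGs in rich windows, and 28 and 19 in the other windows. Sites inside clusters thus weigh more among covered CpGs than among all sites. How far this changed the shares of covered CpGs was not tested. Across rich windows the mCpG count had a Spearman's rho of -0.25 (r = -0.27) with CpG density and 0.23 (r = 0.28) with depth, over 240 windows that share the same libraries.

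**Figure D4:**
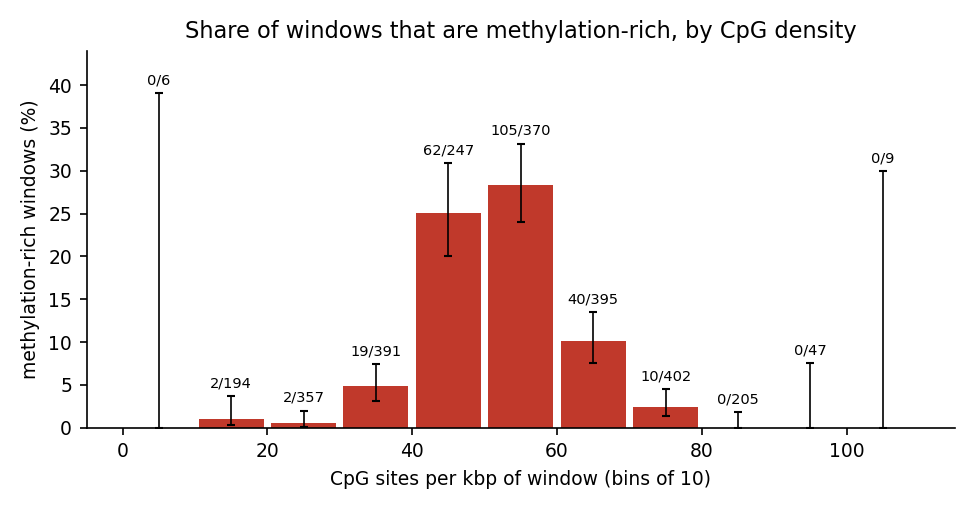
Share of windows that were rich (%) by CpG sites per kbp in bins of 10, with 95% Wilson intervals and the number of rich windows over all windows above each bar. The share is 25.1% and 28.4% at 40 to 60 CpG sites per kbp, and 10.1% or less at any other density.

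CpG sites with 1 to 9 reads took no part in the choice of windows. Their methylation percentage was 1.19% (1.17 to 1.20) in rich windows, 0.625% (0.618 to 0.633) in windows with 75 to 149 mCpGs, 0.211% (0.209 to 0.213) in windows with 1 to 74 and 0.115% (0.112 to 0.118) in windows with none. The order of the classes was that of the covered CpGs. These sites come from the same pool and lie close to covered sites, at times on the same reads, so they are not an independent sample. Across all 2623 windows their methylation percentage had a Spearman's rho of 0.72 (r = 0.68) with the mCpG count, and across the 240 rich windows 0.44 (r = 0.49).

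The level of these sites varied with the distance to the nearest cluster. Inside clusters, sites with 1 to 9 reads were 69.3% methylated in rich windows and 71.7% in the other windows. At 1 to 200 bp from a cluster they were 12.4% methylated in rich windows and 13.5% in the other windows, at 1001 to 2000 bp 0.446% in both, and at 20001 to 50000 bp 0.110% in rich windows and 0.114% in the other windows. At 2001 to 5000 bp they were higher in rich windows, at 0.320% (0.305 to 0.336) against 0.249% (0.239 to 0.259), and at 5001 to 10000 bp likewise, at 0.185% (0.174 to 0.196) against 0.135% (0.129 to 0.141). Of the CpG sites of rich windows 46.1% lay inside a cluster or within 5000 bp of it, against 8.02% of those of the other windows. In windows with 75 to 149 mCpGs the share was 25.4%. These differences follow in part from the choice of windows by mCpGs, since windows with more mCpGs held more clusters.

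Covered CpGs showed more methylation between the clusters of rich windows. Inside clusters they were 63.1% methylated in rich windows and 63.6% in the other windows, and at 1 to 200 bp 3.04% in both. At 1001 to 2000 bp they were 2.36% methylated in rich windows and 1.53% in the other windows, at 2001 to 5000 bp 1.09% and 0.637% in the same order, and at 5001 to 10000 bp 0.459% and 0.257%. At 20001 to 50000 bp the values were 0.152% in rich windows and 0.142% in the other windows. Covered CpGs also drew the clusters, so a high level inside clusters and a low level just beside them follow from the cluster rule in both classes. Since covered CpGs chose the windows, an excess of mCpGs in rich windows was built in, and this comparison is a description only.

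The mCpG counts of the windows beside a rich window were compared next. Of the 235 rich windows with a usable neighbour, 90 had a rich window next to them (38.3%, 95% interval 32.3 to 44.7). The like share was 17.5% (16.0 to 19.1) for windows of any class with a usable neighbour. It was 35.7% (30.8 to 41.0) for windows with 75 to 149 mCpGs and 15.1% (13.6 to 16.7) for all other windows. Counted singly, 9.15% of all usable windows were rich. Counted per neighbour, 22.7% (19.1 to 26.9) of the 440 windows next to a rich window were rich themselves, against 9.98% (9.01 to 11.0) of the 3408 windows next to the other windows. Next to windows with 75 to 149 mCpGs it was 21.8% (18.8 to 25.2), so a high share of rich neighbours was not particular to the rich windows. The median mCpG count was 82.5 in neighbours of rich windows, 65.5 in those of windows with 75 to 149 mCpGs and 4 in neighbours of the other windows. The difference from all other windows was smaller at longer distances. The share seen from rich windows was lower there, and the share seen from the other windows was higher. At 300 kbp 19.3% (15.7 to 23.6) were rich as seen from rich windows and 12.6% (11.3 to 14.0) as seen from the others, at 500 kbp 17.1% and 14.3% in the same order, and at 1000 kbp 15.8% (11.9 to 20.7) and 16.2% (14.4 to 18.3). Windows that have a partner at long distance lie on long scaffolds, where rich windows are more frequent, so shares are comparable only at the same distance. A neighbour shared by 2 windows is counted for each, and a pair of adjacent rich windows is counted from both sides. The intervals take the counted windows as independent, which they are not, so they can be too narrow. A cluster that crosses an edge, as 19 in rich windows did, gives mCpGs to both sides.

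**Figure D5:**
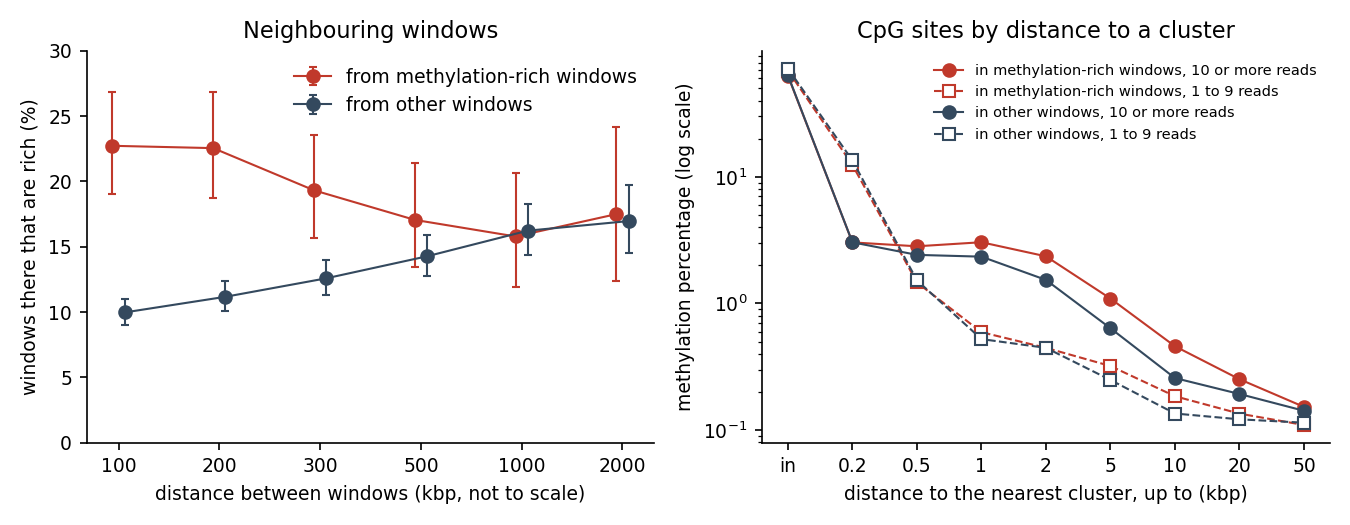
Left, share of windows (%) that were rich at 100 to 2000 kbp from rich windows and from other windows, with 95% Wilson intervals; at 100 kbp it is 22.7% from rich windows and 9.98% from other windows, and at 1000 kbp 15.8% and 16.2% in the same order. Right, methylation percentage (log scale) by distance to the nearest cluster for sites with 10 or more reads and with 1 to 9 reads in rich windows and other windows, which is above 60% inside clusters and falls below 0.2% beyond 20 kbp.

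Most rich windows had no rich window next to them, which depends on the minimum of 150 mCpGs. The usable windows next to a rich window held a median of 82.5 mCpGs, and 4.09% of them held none. Single rich windows numbered 150, and the other 90 rich windows formed 33 runs of 2, 4 runs of 3 and 3 runs of 4. The 3 runs of 4 held the longest rich stretches. On SCAFFOLD14, from its first position to 400000, the windows had 259, 197, 293 and 259 mCpGs and 11, 8, 15 and 11 clusters. On SCAFFOLD8, between 100001 and 500000, they had 208, 211, 239 and 210 mCpGs and 12, 11, 12 and 11 clusters. On SCAFFOLD7, between 2500001 and 2900000, they had 155, 253, 179 and 151 mCpGs and 8, 11, 13 and 10 clusters. The methylation percentage of these windows was 7.82% to 9.73% on SCAFFOLD14, 4.51% to 6.22% on SCAFFOLD8 and 3.54% to 6.60% on SCAFFOLD7. No window in these runs was among the 5 with most mCpGs.

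The rich windows lay on 73 of the 674 scaffolds with a usable window. Of the 49 scaffolds with 10 or more usable windows, 4 had no rich window. The share was highest on SCAFFOLD47, where 6 of 14 windows were rich (42.9%, 21.4 to 67.4), followed by SCAFFOLD28 with 7 of 19 (36.8%, 19.1 to 59.0). SCAFFOLD1, which gave the most windows, had 18 of 95 (18.9%, 12.3 to 28.0). The intervals of the 3 overlap. Of the rich windows 231 were of full length, and the shortest of the other 9 was 58802 bp.

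The study's supplementary tables give scaffold positions for 27 genes, which were listed for candidate non-CpG methylation or because an earlier gene set alone had a model at the cluster. Of these, 25 fell in usable windows and 13 in rich windows. They were chosen through methylation in the same data, so this share says nothing about genes in general. The 13 were Nasvi2EG001107, Nasvi2EG002785, Nasvi2EG003837, Nasvi2EG004247, Nasvi2EG009383, Nasvi2EG009629, Nasvi2EG011228, Nasvi2EG012741, Nasvi2EG013324, Nasvi2EG019523, NV16191, NV21469 and NV23891. Nasvi2EG001107 lay in the window with 532 mCpGs, and NV16191 and Nasvi2EG013324 shared a window on SCAFFOLD35.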

How the data were processed

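Whole-genome bisulfite sequencing of 1 pool of 50 adult females was read in 2 lanes (Genome Analyzer IIx and HiSeq2000). Per the paper's methods the authors trimmed the reads, aligned them with BWA to converted scaffolds and kept unique alignments. The labels name CASAVA 1.7, and the version of BWA and the release of the scaffolds are not given in the sources used here. The authors deposited raw counts of C and of T reads for each CpG site, summed over strands and lanes, so the lanes could not be compared. The lambda control was not analysed here.

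The counts were not normalized. Windows, mCpGs and clusters were computed as defined in the results, with the last window of a scaffold ending at its last CpG site. No test was run. Cluster calling was tested on simulated data with blocks of equal length, spacing and methylation, and of the same CpG density as their surroundings. A block overlapped by a cluster was counted as found, so the simulation does not bear on cluster length, gap or methylation. The windows named were fixed by rule: the 5 with most mCpGs or most clusters, 3 at either side of the threshold (all ties given), the extremes of CpG density, the longest run, the longest cluster, and positions the study gives. The members, lists and rules were chosen with earlier results of these data known. Alternatives varied coverage, the mCpG level, window size, offset and minimum, cluster gap, and depth. Restriction to full windows, to 2000 covered CpGs and to 1-kbp bins with a CpG was added after the data were seen. The annotation at hand was of another build and was not used. Scripts ran in Python 3.11.15 (pandas 2.3.3, NumPy 2.4.6, matplotlib 3.10.9, SciPy 1.17.1).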

Additional observations from a re-analysis of the deposited data

How the results depend on the processing

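Of 93 alternative values, 40 stayed within the limits set for each result, 52 moved and 1 changed sign. Rich windows numbered 111 at a coverage minimum of 20 reads, 444 with at least 100 mCpGs, 118 with at least 200 and 592 as 50-kbp windows, against 240. All 111 were among the 240, 170 of the 240 windows of highest mCpG share were, and the 336 windows at 5 reads included all 240. Rich windows held 48.2% of mCpGs at 5 reads, 25.1% at 20 reads, 37.0% with mCpGs above 20%, 64.9% with at least 100 mCpGs, 25.7% with at least 200, 41.0% with windows shifted by 50 kbp, 59.7% as 50-kbp windows and 38.5% by highest mCpG share, against 43.6%. The median cluster number exceeded that of other windows by 11 at 20 reads, 8 with at least 100 mCpGs, 11 with at least 200, 5 as 50-kbp windows and 14 with gaps of at most 200 bp, against 10. The gap ratio, rich over other, was 1.02 as 50-kbp windows and 1.18 with gaps of at most 200 bp, against 0.92. The length ratio was 1.04 at 20 reads, 1.03 with at least 200 mCpGs and 1.05 by highest mCpG share, against 0.995. The difference in cluster methylation, rich minus other, was 0.37 points by highest mCpG share, the only change of direction counted under this rule. It was -0.11 at 20 reads, -0.12 with mCpGs above 20%, -1.17 with at least 100 mCpGs, -0.083 with at least 200, -0.51 with shifted windows, -1.18 as 50-kbp windows and -0.54 without CpGs above 170 reads, against -0.62. The density ratio was 1.14 at 5 reads, 0.87 at 20 reads, 1.11 with at least 100 mCpGs, 0.96 with at least 200, 0.96 as 50-kbp windows, 0.85 by highest mCpG share, 0.89 among full windows, 0.79 with at least 2000 covered CpGs and 0.95 over 1-kbp bins that hold a CpG. Sites below the coverage minimum were more methylated in rich windows by 0.573 points at 5 reads, 2.23 at 20 reads, 0.982 with mCpGs above 20%, 0.739 with at least 100 mCpGs, 1.12 with at least 200, 0.935 with shifted windows, 1.14 as 50-kbp windows and 1.02 by highest mCpG share, against 0.919. At 5 and 20 reads these are other sites than those with 1 to 9 reads. The share of rich windows with a rich neighbour was 52.3% at 5 reads, 17.4% at 20 reads, 58.9% with at least 100 mCpGs, 21.6% with at least 200, 53.3% as 50-kbp windows and 32.2% by highest mCpG share, against 38.3%, and the number of rich windows changed with it. Otherwise the cause of these changes was not tested.

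No paired analysis was possible because both lanes come from 1 pool and their counts were summed in the deposited table. At a median of 19 reads, a single CpG near 10% methylation can fall on either side of the mCpG threshold by counting error.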
